A study of Mus musculus with 6 samples.

Results

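Core genes of the integrated stress response, 10 in number, were followed in Met-1 TripZ-200c cells with and without doxycycline (Dox). The members are Atf4, Atf5, Ddit3, Nupr1, Trib3, Ppp1r15a, Chac1, Sesn2, Ddit4 and Vldlr. They were chosen by symbol, as known genes of the axis that runs through the transcription factors ATF4 and CHOP, which Dox itself may raise. The choice was made with earlier results of these data known. All 10 were found among the 43548 gene identifiers of the deposited table, each under 1 identifier, and all 10 were among the 12879 genes abundant enough to test. Met-1 is a mouse mammary carcinoma line derived from a late-stage tumor of the MMTV-PyMT model, of FVB/nJ background. The TripZ-200c derivative used here is a single clone with a Dox-inducible lentiviral vector that encodes the miR-200c precursor and a red fluorescent protein. For 48 h, 3 cultures received 1 µg/mL Dox and 3 received vehicle, and their mRNA was sequenced. Cells of both groups carried the vector, and every culture with Dox received the drug together with the induced transgene. No empty-vector libraries were analysed here, so an effect of Dox itself and an effect of miR-200c cannot be told apart.

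The integrated stress response is a shared pathway that cells use under amino acid shortage, endoplasmic reticulum stress, mitochondrial stress, viral RNA or heme deficiency. Its kinases phosphorylate the translation initiation factor eIF2α, which slows protein synthesis in general while the mRNA of ATF4 is translated more efficiently. ATF4 then activates genes of amino acid supply, redox balance and, with CHOP, of cell death and of recovery from the translational block. Because ATF4 and ATF5 are controlled largely at translation, their mRNA is only one readout of the pathway.

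Expression was taken as FPKM, the deposited unit, in which a gene's fragments are divided by its length and by library size. Levels of different genes in one library can therefore be compared per length, while read numbers cannot be recovered. Library sums of FPKM ran from 800267 to 815139, and the relative depths estimated from the lowest values ranged from 0.916 to 1.49 times that of Minus Dox replicate 1. A 0 in the table need not mean absence, because all 37 mitochondrial genes listed were at 0. Fold changes were fitted with limma on log2(FPKM + 0.1), and a gene was called changed at a Benjamini-Hochberg adjusted p below 0.05 over all genes tested. The submitters describe cultures plated in triplicate, so the p-values measure only the spread between these cultures, which may be technical. In a bulk sample, fewer cells of a kind and less RNA per cell cannot be told apart. The induction was visible in Zeb1 and Zeb2, repressors of the epithelial state and established miR-200c targets. Zeb1 was 41.8 ± 0.682 FPKM without Dox and 21.2 ± 2.05 with Dox (SD, n = 3 each), and Zeb2 was 29.3 ± 1.43 and 8.29 ± 0.661 FPKM. The mesenchymal marker Vim fell less, from 3961 ± 110 to 3104 ± 86.9 FPKM (log2 fold change −0.35, adjusted p = 0.000566). Fn1 did not fall, at 263 ± 3.85 FPKM without Dox and 274 ± 2.84 with Dox (adjusted p = 0.371), with replicate 3 of each group missing. Epithelial markers of the labelled carcinoma cells were at unequal levels. Krt18 was 93.2 ± 2.78 FPKM without Dox and 386 ± 19.6 with Dox, and Krt7 was 45.0 ± 2.26 and 274 ± 1.13 FPKM. Epcam was 0.128 ± 0.0394 FPKM without Dox and 4.06 ± 0.225 with Dox. Krt8, Cdh1 and Cldn7 averaged below 1 FPKM in both groups, and Krt19 was listed at 0 in every library. At these low levels Cdh1 went from 0.0585 ± 0.018 to 0.828 ± 0.361 FPKM and Krt8 from 0.262 ± 0.11 to 0.736 ± 0.164. For both, every library with Dox was above every library without it, and the groups of Cldn7 overlapped. The 4 leukocyte markers found summed to 7.52 to 14.0 FPKM without Dox and 7.89 to 9.28 with Dox, and the 3 endothelial markers to 4.47 to 5.12 and 4.19 to 4.55. None of these 7 was called, but Ptprc, Csf1r, Pecam1 and Kdr were below the abundance needed for the test. Most of the leukocyte sum came from Cd68 and most of the endothelial sum from Cdh5, with means of 8.09 and 4.30 FPKM over the 6 libraries. Of the 3 adipocyte markers, Adipoq and Plin1 were at 0 and Fabp4 fell from 12.7 ± 1.44 to 6.82 ± 1.57 FPKM (adjusted p = 0.0177).

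With Dox, Atf4, Trib3 and Ppp1r15a rose, Vldlr fell, and the other 6 members did not pass the test. The rises were small, between 1.12-fold and 1.43-fold, and the fall of Vldlr was the largest change among the 10, to 0.56 times its level without Dox. Of the 10 members, 3 were called higher and 1 lower. Over all genes tested, 15.0% were called, 7.06% higher and 7.97% lower. The groups did not overlap in 9 of the 10, with 7 members higher and 2 lower with Dox, where 35.0% of all genes had groups that did not overlap, 17.4% higher and 17.6% lower. The median log2 fold change of the 10 was 0.16, beside 0.00 for all genes tested. Because the members were chosen with earlier results of these data known, these counts and medians are descriptions.

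**Figure D1:**
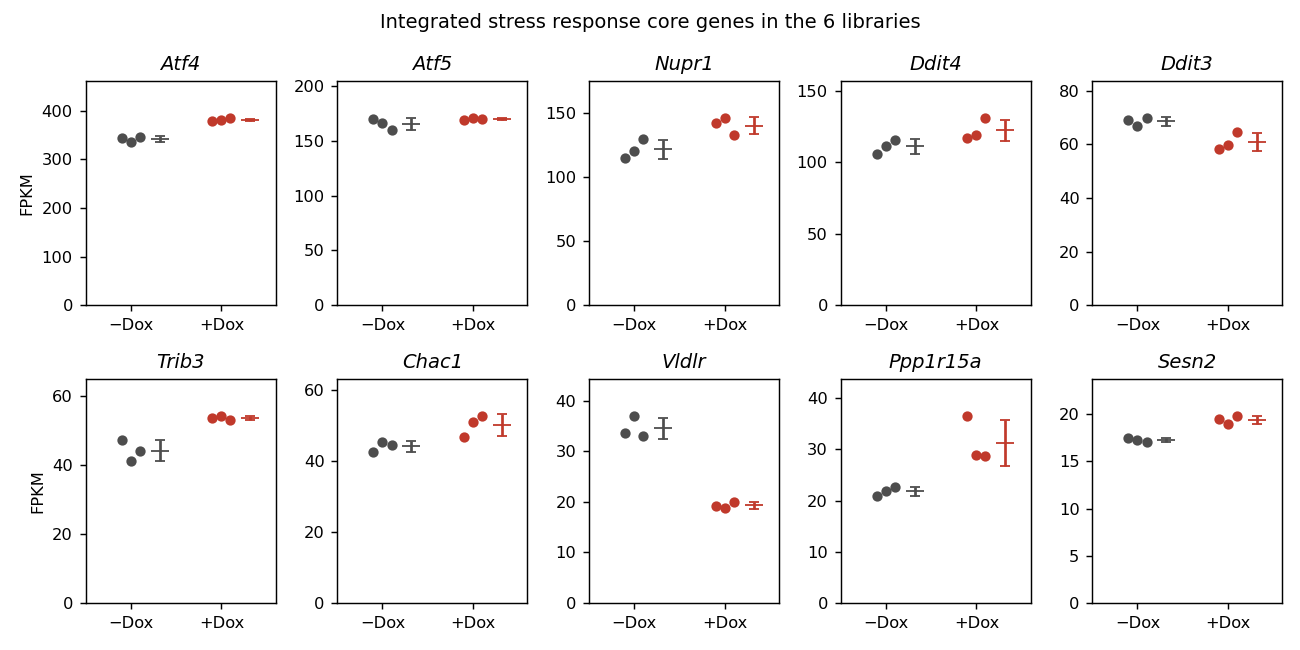
FPKM of the 10 members in each library, from 0 on a separate vertical axis per gene, with dots for single libraries without Dox (grey) and with Dox (red) and a bar for the mean ± SD of each group (n = 3). The groups are apart in every panel but that of Atf5, and Vldlr drops from 33.0 to 36.9 FPKM without Dox to 18.7 to 19.9 with Dox.

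Among the 4 transcription regulators, Atf4 rose and the other 3 did not pass the test. In the sentences that follow, values are listed in the order of replicates 1, 2 and 3 of each group. Atf4, the bZIP factor at the center of the pathway, stood at 343, 335 and 346 FPKM under vehicle and at 379, 381 and 384 FPKM after Dox. It was the most abundant of the 10 in all 6 libraries, and its mean over the libraries exceeded that of 97.6% of the genes tested. Every library with Dox was above every library without it, although the group means, 341 ± 5.72 and 381 ± 2.55 FPKM (SD, n = 3 each), differed by a small step. The fitted log2 fold change was 0.16 (SE 0.026, adjusted p = 0.00829), a rise of 1.12-fold with a 95% interval of 1.07 to 1.17. Atf4 lies on chr15:80255184-80257541, plus strand, of GRCm38, and no other annotated gene overlaps it.

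Atf5 encodes a related bZIP factor that, like ATF4, is translated preferentially when eIF2α is phosphorylated. Its FPKM was 170, 166 and 160 without Dox and 169, 171 and 170 with Dox. The groups overlapped, and Atf5 was the one member for which they did. The log2 fold change was 0.04 (SE 0.034, adjusted p = 0.502), with an interval of the fold from 0.972 to 1.09. Atf5 was second in abundance in both groups. On chr7:44812256-44816658, minus strand, Atf5 overlaps Nup62 and Il4i1 on the opposite strand and shares 4.68% of its longest transcript with Il4i1. The study's methods name a stranded library kit, but whether the counting used strand is not given in the sources used here.

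Ddit3 encodes CHOP, the bZIP factor that ATF4 induces and that promotes cell death when stress persists. Its levels were 69.3, 66.8 and 69.7 FPKM without Dox and 58.4, 59.9 and 64.6 FPKM with Dox. All 3 libraries with Dox were lower than the lowest library without it, the opposite direction from Atf4. The log2 fold change of −0.17 (SE 0.0497) did not pass the test, at an adjusted p of 0.0629, and the interval of the fold was 0.819 to 0.963. Without Plus Dox replicate 3, the highest of its group, the adjusted p was 0.0485. Ddit3 (chr10:127290774-127296288, plus strand) overlaps a second gene model of the same name, with which it shares 10.8% of its longest transcript. It also overlaps Mars and Gm4189 on the opposite strand, so its value is less certain than those of members without such overlaps.

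Nupr1 encodes a small stress-induced chromatin-associated regulator that ATF4 and CHOP control. It was measured at 115, 120 and 130 FPKM under vehicle and at 142, 146 and 133 FPKM with Dox. The groups were separate, although the highest library without Dox and the lowest with Dox were close. The log2 fold change was 0.21 (SE 0.0559) and the adjusted p was 0.0506, just outside the threshold. It fell on the other side of the threshold in 4 of the 17 alternative settings, among them the omission of Minus Dox replicate 3 (adjusted p = 0.0358). Nupr1 shares 3.06% of its longest transcript with other genes, 57 in number.

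The pair of feedback regulators among the members rose. Trib3 encodes a pseudokinase that binds ATF4 and dampens its activity. It was 47.1, 41.2 and 44.1 FPKM without Dox and 53.5, 54.1 and 53.0 FPKM with Dox. The libraries with Dox were tightly grouped, and all 3 exceeded the highest without it. The mean went from 44.2 ± 2.93 to 53.5 ± 0.589 FPKM (SD, n = 3 each), a rise of 1.21-fold with an interval of 1.11 to 1.33 (log2 fold change 0.28, SE 0.0562, adjusted p = 0.0179). This call depended on single libraries: the adjusted p was 0.054 without Minus Dox replicate 3, 0.0553 without Plus Dox replicate 1, 0.063 without Plus Dox replicate 2 and 0.0578 without Plus Dox replicate 3.

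Ppp1r15a encodes GADD34, the stress-induced subunit that directs protein phosphatase 1 to eIF2α and so restores translation. The 3 cultures without Dox gave 20.9, 21.9 and 22.6 FPKM, and those with Dox gave 36.5, 28.8 and 28.7 FPKM. Plus Dox replicate 1 stood above the other two of its group, and all 3 were higher than any library without Dox. Ppp1r15a had the largest rise among the members, 1.43-fold with an interval of 1.21 to 1.68 (log2 fold change 0.51, SE 0.1, adjusted p = 0.0165). The rise was still called without the high library, at a log2 fold change of 0.40 (adjusted p = 0.0161), and it was not called without Minus Dox replicate 1 (adjusted p = 0.0514). Ppp1r15b, the constitutive counterpart of GADD34, was 21.5 ± 1.2 FPKM without Dox and 22.6 ± 0.852 with Dox (adjusted p = 0.509). The gene of GADD34 (chr7:45522916-45526268, minus strand) overlaps Tulp2 on the opposite strand.

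**Figure D2:**
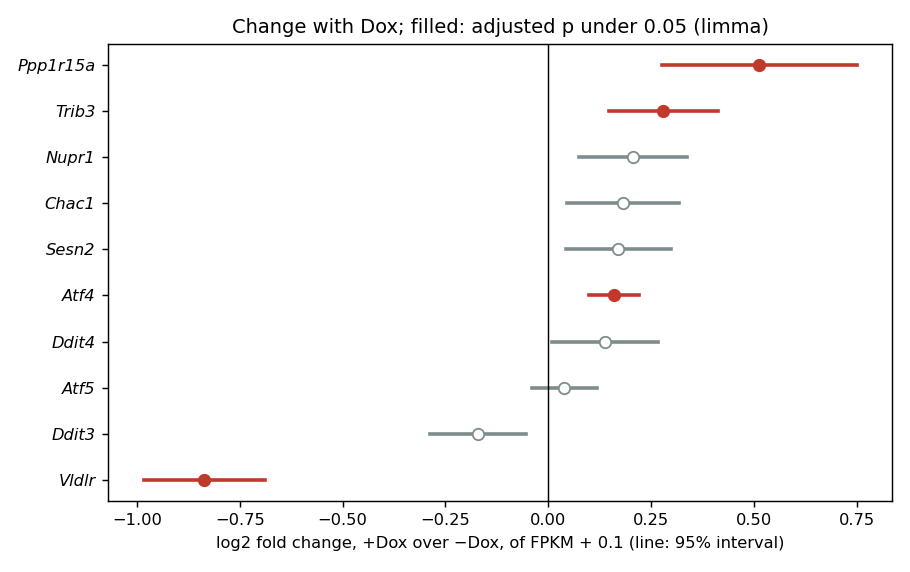
Log2 fold change with Dox over without Dox for each of the 10 members, on the scale of log2(FPKM + 0.1), with the 95% interval as a line, filled circles for members with an adjusted p below 0.05 and open circles for the rest. Vldlr stands alone at −0.84 and Ppp1r15a at 0.51, and the other 8 lie between −0.17 and 0.28.

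Among the effectors of the response, 3 were higher in every library with Dox without passing the test, and Vldlr fell. Chac1, whose product degrades glutathione, was 42.6, 45.5 and 44.6 FPKM without Dox and 46.8, 51.1 and 52.8 FPKM with Dox. The groups were separate by a narrow margin, and the log2 fold change was 0.18 (SE 0.0579, adjusted p = 0.0832, interval of the fold 1.03 to 1.25). Without Plus Dox replicate 1, the lowest of its group, the adjusted p was 0.0488.

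Sesn2 encodes sestrin 2, a leucine-sensing inhibitor of mTORC1. Its levels were 17.5, 17.2 and 17.0 FPKM without Dox and 19.5, 19.0 and 19.8 FPKM with Dox, the lowest of the 10 members without Dox. The libraries of each group were close to each other and the groups were separate. The log2 fold change was 0.17 (SE 0.0541, adjusted p = 0.0828, interval of the fold 1.03 to 1.23). In the unmoderated linear model its adjusted p was 0.0239. Sesn2 (chr4:132492032-132510501, minus strand) overlaps Gm12981 on the same strand.

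Ddit4 encodes REDD1, another inhibitor of mTORC1 signaling. It was 106, 111 and 116 FPKM without Dox and 117, 119 and 131 FPKM with Dox. The highest library without Dox and the lowest with Dox were nearly equal, so the groups were only just apart. The log2 fold change was 0.14 (SE 0.0549, adjusted p = 0.148, interval of the fold 1.01 to 1.2), and Ddit4 passed the test under none of the 17 alternative settings.

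Vldlr encodes the very low density lipoprotein receptor, a lipid uptake receptor that ATF4 can induce. It stood at 33.6, 36.9 and 33.0 FPKM under vehicle and at 19.2, 18.7 and 19.9 FPKM with Dox. No library with Dox came near any library without it, and the mean was 1.79 times higher without Dox (34.5 ± 2.12 against 19.3 ± 0.622 FPKM, SD, n = 3 each). The log2 fold change was −0.84 (SE 0.0625, adjusted p = 0.00035), and the interval of the fold ran from 0.506 to 0.62. Vldlr was called lower under all 17 alternative settings, the one member called under every setting. The gene lies on chr19:27216484-27254231, plus strand.

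Vldlr was also the one member whose 3′ UTR holds the site that pairs with the seed of the induced microRNA. The mature sequence of mmu-miR-200c-3p (RefSeq, GRCm38.p6, chr6:124718324-124718346, minus strand) is shown with its seed, bases 2 to 8, in capitals, and the Vldlr site (chr19:27249370-27249398, plus strand) with the complementary 7 bases in capitals.
mmu-miR-200c-3p: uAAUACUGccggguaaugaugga
Vldlr 3′ UTR site: gagcccctagaCAGTATTgccatctctgg
The match begins at base 241 of a 3′ UTR of 5091 bases, which is long compared with those of the other 9 members, 77 to 1684 bases, none of which holds the 7 bases. Among the 10812 genes tested that have an annotated 3′ UTR, 16.9% hold at least 1 such match, and the median length was 1385 bases. A match of 7 bases is a description of the sequence, and its part in the fall of Vldlr was not tested.

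The members changed places little in the order of their levels. Without Dox the order by mean FPKM was Atf4, Atf5, Nupr1, Ddit4, Ddit3, Chac1, Trib3, Vldlr, Ppp1r15a and Sesn2. The libraries of Nupr1 and Ddit4 overlapped, as did those of Chac1 and Trib3. With Dox, Trib3 passed Chac1, and Vldlr went from above Ppp1r15a to the last place, where its libraries overlapped those of Sesn2. Set against Atf4 in the same library, Ddit3 was at 0.199 to 0.202 of the Atf4 level without Dox and at 0.154 to 0.168 with Dox. Ppp1r15a moved the other way, from 0.061 to 0.0654 of the Atf4 level without Dox to 0.0746 to 0.0964 with Dox. Trib3 also moved up, from 0.1232 to 0.1374 without Dox to 0.1379 to 0.1422 with Dox, with the groups only just apart. Vldlr moved down, from 0.0954 to 0.11 without Dox to 0.0492 to 0.0519 with Dox. Atf5 moved down as well, from 0.462 to 0.497 without Dox to 0.442 to 0.448 with Dox. The ratios of Ddit4, Chac1, Sesn2 and Nupr1 to Atf4 overlapped between the groups. These ratios were formed after the levels had been seen and are given without a test. Within the groups, Plus Dox replicate 3 was the highest library of its group in 6 of the 10 members and Plus Dox replicate 1 the lowest in 5.

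The promoters of the members were searched for the core of the element that ATF4 binds with C/EBP partners, TGATGNAA, on both strands from 250 bases before to 50 after each RefSeq start site of GRCm38.p6. It was present once in a promoter of 4 of the 10 members, Trib3, Chac1, Vldlr and Nupr1, and in 4.51% of the 27025 genes with a promoter in the same table. The 4 stretches are shown 5′ to 3′ on the strand of the gene, with the match in capitals, since they include the promoters of a member that rose and of the member that fell. All 4 carry the element in the reverse orientation.
Trib3, chr2:152344011-152344086, minus strand: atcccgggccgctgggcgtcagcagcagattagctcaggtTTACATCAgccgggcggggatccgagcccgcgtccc
Chac1, chr2:119351009-119351096, plus strand: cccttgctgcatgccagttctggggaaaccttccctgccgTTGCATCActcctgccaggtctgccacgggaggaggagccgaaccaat
Vldlr, chr19:27216780-27216867, plus strand: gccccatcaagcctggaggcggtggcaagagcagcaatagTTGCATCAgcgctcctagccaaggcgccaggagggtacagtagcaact
Nupr1, chr7:126625533-126625620, minus strand: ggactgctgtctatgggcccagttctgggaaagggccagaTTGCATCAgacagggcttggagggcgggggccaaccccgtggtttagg
The match lies 193 bases before the start in Chac1, 110 before in Nupr1 and 200 before the second annotated start in Vldlr, and in Trib3 it begins at base 15 of the transcript. Members with the match went in different directions, with Trib3 higher, Vldlr lower, and Chac1 and Nupr1 not called. Atf4 and Ppp1r15a, which rose, had no match in this window, which says only that these letters do not occur there.

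The machinery above the members had a share of calls no higher than that of all genes tested, 15.0%. Of 20 genes tested for the eIF2α kinases and their regulators, eIF2, its exchange factor eIF2B and the phosphatase, 1 was called higher and 1 lower, with a median log2 fold change of 0.05. Eif2s2, the β subunit of eIF2, rose from 63.2 ± 1.52 to 74.1 ± 2.59 FPKM (log2 fold change 0.23, adjusted p = 0.0141). Impact, an inhibitor of the kinase GCN2, fell from 40.5 ± 2.49 to 30.2 ± 2.28 FPKM (log2 fold change −0.42, adjusted p = 0.0108). Eif2ak3, which encodes the endoplasmic reticulum stress kinase PERK, was at −0.09 on the log2 scale (adjusted p = 0.603), and Eif2ak4, which encodes GCN2, was at −0.03 (adjusted p = 0.808). Eif2s1, which encodes eIF2α itself, was at 0.06 (adjusted p = 0.424). Without Plus Dox replicate 3 the rise of Eif2s2 was not called (adjusted p = 0.0545), and without Minus Dox replicate 1 or 3 the count of genes called higher was 2. Phosphorylation of eIF2α and the ATF4 protein were not measured by these libraries.

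Among 19 dimer partners and related bZIP factors tested, 2 were called higher and 3 lower, with a median of 0.04. The shares over all genes tested were 7.06% higher and 7.97% lower. Cebpa, a C/EBP factor, fell from 12.6 ± 1.75 to 4.51 ± 0.555 FPKM, a log2 fold change of −1.46 (adjusted p = 0.000846), and Jun, an AP-1 subunit, fell by 0.50 on the log2 scale (adjusted p = 0.00108). Nfe2l1, which controls proteasome genes, rose by 0.27 (adjusted p = 0.0249), a call lost without Minus Dox replicate 2 (adjusted p = 0.0731) or 3 (adjusted p = 0.059). The other C/EBP factors named, Cebpb at 0.03 (adjusted p = 0.754) and Cebpg at 0.12 (adjusted p = 0.195), were not called. The 2 called higher became 0 without Minus Dox replicate 2 and 1 without Minus Dox replicate 1 or 3 or Plus Dox replicate 3. Atf3, another early ATF4 target, was below the abundance needed for the test, with 0.557 ± 0.267 FPKM without Dox and 0.397 ± 0.0247 with Dox.

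Of the 23 amino acid synthesis and uptake genes tested that ATF4 is known to activate, 9 were called higher and 0 lower, with a median of 0.17. Over all genes tested, 7.06% were called higher and 7.97% lower. Every library with Dox was above every library without it in 11 of the 23, and below in 4. These 4 were Aldh1l2, Slc3a2, Slc7a5 and Slc38a2, none of them called. The shares of all genes were 17.4% and 17.6%. The largest rises were those of Gpt2, a mitochondrial alanine transaminase, at 0.52 (37.6 ± 1.86 to 54.1 ± 2.86 FPKM, adjusted p = 0.00178), the glutamine carrier gene Slc1a5 at 0.41 (adjusted p = 0.035) and the glutamine carrier gene Slc38a1 at 0.31 (adjusted p = 0.00402). Asns, the asparagine synthetase gene, rose by 0.11 (adjusted p = 0.0351), a call lost on leaving out any 1 library. The serine synthesis genes Phgdh and Psat1 were not called, with log2 fold changes of 0.04 (adjusted p = 0.421) and 0.00 (adjusted p = 0.949). Slc7a11, the cystine carrier gene, was at 0.28 (adjusted p = 0.0932). The call of Slc1a5 was lost on leaving out any of 4 libraries, with adjusted p up to 0.109, and kept without replicate 1 of either group. The count of 9 was 4 without Plus Dox replicate 3 and 6 with any other single library left out, and it was 4 in limma without the trend.

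**Figure D3:**
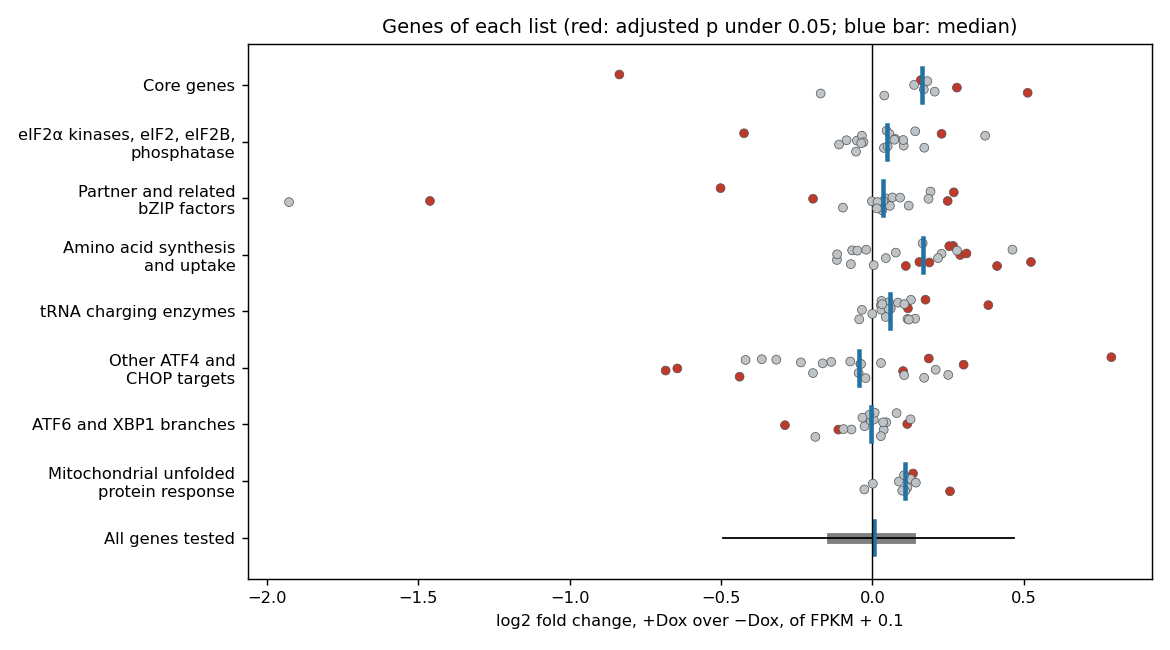
Log2 fold change of every gene tested in the members' list and in 7 lists of related genes, 1 dot per gene, with a bar at each list's median and, for all genes tested, a thin line from the 5th to the 95th percentile and a thick line between the quartiles. The amino acid list has its median at 0.17 and no called gene below 0, and all genes tested have a median of 0.00.

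The enzymes that charge tRNA, taken as a family and not only as targets of ATF4, had 3 of 20 called higher and 0 lower. Their median was 0.06. For this list and the next, the shares over all genes tested were 7.06% higher and 7.97% lower. Iars was at 0.38 (83.2 ± 0.558 to 109 ± 1.15 FPKM, adjusted p = 0.000559), Vars at 0.18 (adjusted p = 0.0134) and Sars at 0.12 (adjusted p = 0.0498). The call of Vars was lost without Plus Dox replicate 3 (adjusted p = 0.0576), and that of Sars on leaving out any library but Minus Dox replicate 3, with adjusted p up to 0.144. The count of 3 was 1 without Plus Dox replicate 3. The list of other ATF4 and CHOP targets went both ways, with 4 of 24 higher, 3 lower and a median of −0.04. It also holds relatives of members, Sesn1, Sesn3, Trib1 and Trib2, and control of its genes by ATF4 or CHOP was not tested here. Ndrg1, a stress- and hypoxia-responsive gene, rose from 25.6 ± 0.631 to 44.4 ± 0.766 FPKM (log2 fold change 0.79, adjusted p = 0.00013). Txnip, an inhibitor of thioredoxin, fell by 0.68 (adjusted p = 0.00496), and Sesn1, a relative of the member Sesn2, fell by 0.64 (adjusted p = 0.00402). Sesn1 and Sesn3 were both called lower, the direction opposite to that of the 3 Sesn2 libraries. Of this list, 2 in place of 4 were called higher without Minus Dox replicate 2 or any 1 of the Plus Dox libraries. Gdf15 was listed at 0 in all 6 libraries.

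In the neighbouring arms of the unfolded protein response the share of calls was near the 15.0% of all genes tested. Of 19 genes of the ATF6 and XBP1 branches, 1 was called higher and 2 lower, with a median of −0.01. Hspa5, the chaperone BiP, was at 0.12 (709 ± 18.8 to 768 ± 13.5 FPKM, adjusted p = 0.0383), and this call was lost on leaving out any library but Minus Dox replicate 3, with adjusted p up to 0.113. P4hb, a protein disulfide isomerase, fell by 0.11 (adjusted p = 0.0221) and Edem1, of the degradation of misfolded glycoproteins, by 0.29 (adjusted p = 0.0175). Each of these falls was called in 2 of the 6 omissions of a library, P4hb without Minus Dox replicate 3 or Plus Dox replicate 1 and Edem1 without replicate 2 of either group, and otherwise reached an adjusted p of up to 0.0886 and 0.0639. Xbp1 itself was 62.3 ± 1.7 FPKM without Dox and 62.2 ± 1.48 with Dox (adjusted p = 0.988). In the mitochondrial unfolded protein response, 2 of 11 genes were called higher and 0 lower, with a median of 0.11. Every library with Dox was above every library without it in 8 of the 11, and below in 0. In the ATF6 and XBP1 branches these counts were 2 and 3 of 19, and the shares of all genes were 17.4% and 17.6%. The 2 mitochondrial genes called were the chaperone genes Hspd1, at 0.26 (323 ± 3.15 to 386 ± 16.9 FPKM, adjusted p = 0.00485), and Hspa9, at 0.13 (adjusted p = 0.0163). Hspa9 was called in 2 of the 6 omissions, those of Minus Dox replicate 3 and Plus Dox replicate 2, and otherwise had an adjusted p of up to 0.0608. Over the 7 lists of related genes together, 22 of 136 genes tested were called higher and 9 lower, with a median of 0.04. Among all genes tested, 7.06% were called higher and 7.97% lower, with a median of 0.00. The count of 22 was 12 without Minus Dox replicate 2 and 9 without Plus Dox replicate 3, and that of 9 was 5 without Plus Dox replicate 3.

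**Figure D4:**
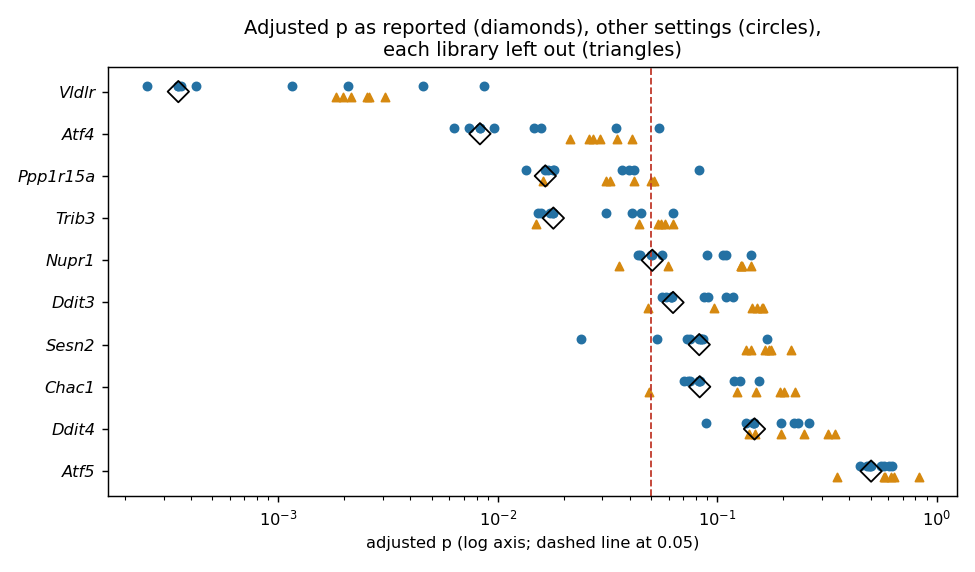
Adjusted p of each member on a log axis under the reported fit (diamonds), other settings (circles) and the omission of 1 library (triangles), with a dashed line at 0.05. The threshold of 0.01 and the minimum change of 1.5-fold are not plotted. Vldlr lies past the line at every setting plotted, and Atf4 at all but limma without the trend. Ppp1r15a falls short in the unmoderated linear model and without Minus Dox replicate 1. Trib3 falls short in the unmoderated linear model, without Minus Dox replicate 3 and without any of the Plus Dox libraries. Atf5 and Ddit4 lie past the line at none.

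The genes whose pattern over the 6 libraries was most like that of a member were found for Atf4 and Trib3 among the 10590 genes averaging 5 FPKM or more. For Atf4 these were Gpd1l, F2rl1 and Btn1a1, with Pearson correlations of 0.999, 0.998 and 0.998. For Trib3 they were Baz1a, Carm1 and Epg5, with correlations of 0.998, 0.997 and 0.997. All 6 rose with Dox, by between 0.15 and 2.21 on the log2 scale, so the size of the change was not shared. The calls of Baz1a, Carm1 and Epg5 were lost on leaving out any library but Minus Dox replicate 1, with adjusted p up to 0.0686, 0.102 and 0.117. The libraries share the step between the groups, which makes up most of such a correlation, and these values are descriptions.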

How the data were processed

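Met-1 TripZ-200c cells were sequenced after 48 h with vehicle or 1 µg/mL Dox, in 3 libraries per group, assigned from the sample labels. The study's methods give 48 h, whereas a figure legend of the study points to samples treated for longer. Single-end reads were aligned by the authors with gSNAP to the mouse genome (GRCm38.p6 in the submitters' processing notes), and Cufflinks gave the FPKM values per gene and library that the authors deposited. The study's methods also name an FVB/NJ assembly, and coordinates, overlaps and sequence matches here rest on GRCm38 alone. The table also holds the authors' group means, fold scores, p-values and q-values, which were not used. It has 43611 rows. Of each repeated identifier, only the row with the largest mean entered, which dropped 63 rows. In 4 genes, 6 placeholder values were treated as missing. FPKM carries no read counts, so no counting intervals are given.

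The 12879 genes averaging 1 FPKM or more were tested in R 4.3.3 by limma 3.58.1, using lmFit and trended eBayes on log2(FPKM + 0.1), with the group as the only term and Benjamini-Hochberg adjustment at 0.05. Fold changes on this scale understate the change of low genes. Atf3 and other genes under the filter were not tested with it. With 3 libraries against 3, an exact permutation test cannot go below 0.10 and was not used for single genes. The fit was tested on simulated data. The members and gene lists were chosen with earlier results of these data known. Named genes were all members, the 3 largest called changes of each related list, a fixed set of pathway genes, Zeb1 and Zeb2, and the 3 genes most correlated with Atf4 and with Trib3. Overlapping genes, 3′ UTRs and coordinates are from GENCODE M21. Sequence shared between transcripts was found with BLAST 2.17.0, counting hits of 50 or more bases at 95% identity. Promoter and miRNA sequences are from RefSeq. Python 3.11.15, numpy 2.4.6, pandas 2.3.3 and matplotlib 3.10.9 were used. Of the genes listed, Dele1, Map1lc3b and Spg7, and the marker Adgre1, were not analysed here. Alternatives were pseudocounts of 1 and 0.01, no filter, a minimum mean of 5 FPKM, quantile and median scaling, limma without the trend, an unmoderated linear model, a replicate block, a threshold of 0.01, a change of at least 1.5-fold and leaving out each library.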

Additional observations from a re-analysis of the deposited data

How the results depend on the processing

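The direction of every member's change was kept under all 17 alternatives. Vldlr was called under all 17, Atf4 was lost only without the trend (adjusted p = 0.0542) or with a minimum change of 1.5-fold, and the unmoderated linear model lost Trib3 (adjusted p = 0.0632) and Ppp1r15a (adjusted p = 0.0827) and gained Sesn2 (adjusted p = 0.0239). The 3 members called higher became 1 at an adjusted p of 0.01, 0 with a minimum change of 1.5-fold and 2 to 3 when 1 library was left out. The 1 member called lower became 2 without Plus Dox replicate 3, where Ddit3 joined Vldlr, and stayed at 1 to 2 over those omissions. The number of genes called, 1935, became 1284 in the unmoderated linear model, 770 at an adjusted p of 0.01, 452 with a minimum change of 1.5-fold and 1069 to 1384 with 1 library left out. The related genes called higher, 22, became 10 without the trend, 8 at an adjusted p of 0.01, 1 with a minimum change of 1.5-fold and 9 to 18 with 1 library left out. The 9 called lower became 4, 3 and 5 to 8 under the latter settings, in the same order. The replicate numbers are shared by the groups, and these libraries are too few to decide whether the numbers pair the cultures. Same-numbered libraries correlated at 0.0287, 0.0359 and −0.00759 in their deviations from the group means. Replicates 1 and 2 correlated best with their own number, and replicate 3 did not. With the replicate number as a block, 1337 genes were called, the same 4 members passed, 14 related genes were called higher, and 5 of the amino acid genes in place of 9. Genes near 0 changed sign: Cebpb ranged from −0.0202 to 0.0811 and Eif2ak4 from −0.0732 to 0.0295 with 1 library left out, Psat1 was −0.0118 with quantile normalization and −0.0147 to 0.0294 with 1 library left out, and Xbp1 was 2.58e-05 with median scaling and −0.0204 to 0.0210 with 1 library left out. The cause of these shifts was not tested, and fewer samples remain when a library is left out. Of 817 values over 49 named genes, 671 kept direction and side of the threshold, 130 lost and 7 gained a call, and 9 reversed. Depth is unknown, so the precision of low genes cannot be stated.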
